A study of Mus musculus with 2 samples.

Results

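Histone lysine methylation is set by enzymes that write and erase methyl groups. The genes of the writers and erasers are described here at their own promoters in MEL cells. The set holds 44 listed genes, 29 writers with the subunits of their complexes and 15 erasers, chosen by symbol. Of these, 43 were found by symbol among the 21938 protein-coding genes of GENCODE M21 on mm10, 28 writers and 15 erasers. Setd8, an H4K20 methyltransferase, was not found under that symbol. MEL is an immortalised mouse erythroleukaemia line, described in the labels as a leukaemia counterpart of the human K562 line. Chromatin carrying trimethylated lysine 4 of histone H3 (H3K4me3) was immunoprecipitated and sequenced in 2 libraries. They form 1 group, untreated as far as the labels say, with no second condition, and the line's age, sex and developmental stage are not given. The labels number them as biological replicates but name the same biosample for both, so their differences may be partly technical.

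H3K4me3 marks the starts of active and poised genes, above all those rich in CpG dinucleotides. In mammals it is written by the KMT2 family, SET domain enzymes that work in complexes with the shared subunits Wdr5, Rbbp5, Ash2l and Dpy30, and it is removed by the KDM5 enzymes. Kdm1a and Kdm1b take away the lower methylation states of the same residue. Other members act on H3K9, linked to silent chromatin, on H3K36 and H3K79, found over transcribed gene bodies, or on H3K27.

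The values come from peak lists made by the authors, 1 for each replicate, 1 for the pooled reads and 1 of replicated peaks, with 37387 peaks in the replicated list, 51790 in that of replicate 1 and 41508 in that of replicate 2. The lists carry no read counts, so depth is unknown and a missing peak may mean too few reads. A gene counts as marked here if the replicated list has a peak no farther than 1000 bp from one of its annotated transcript starts. Peaks less than 1000 bp apart were joined into domains, and a marked gene was given its widest domain at a start. The signal value is the authors' score for each peak, and a gene was ranked by its strongest start peak among the 11037 marked genes of the list. The strongest start peak need not lie in the widest domain of the gene. Of 11 erythroid markers 9 were marked, among them Gata1, Klf1 and Tal1, while Hbb-bs and Slc4a1 were not. None of 11 T cell, liver, neuron, germ cell and skeletal muscle markers was marked. These lists show a mark on genes, not RNA or protein.

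Nearly the whole set carried the mark. A start peak was found at 42 of 43 members, against 50.3% of all protein-coding genes. By role these were 27 of 28 writers and 15 of 15 erasers. Every member had the same call in replicate 1 and replicate 2, where 50.4% and 50.9% of all genes were marked, and in the pooled list, where 50.6% were. The sole unmarked member was Smyd1, a methyltransferase of heart and skeletal muscle. All 7 KMT2 genes, all 6 subunit genes, all 6 H3K9 writers (Setdb1, Setdb2, Suv39h1, Suv39h2, Ehmt1 and Ehmt2), all 3 H3K36 writers (Setd2, Setd5 and Nsd1) and Dot1l, the H3K79 methyltransferase, were marked. The same held for the 4 H3K4 erasers (Kdm1a, Kdm1b, Kdm5a and Kdm5b) and the 2 H3K9 erasers (Kdm3a and Kdm3b). It also held for the 4 Kdm4 genes, whose products act on H3K9 and some also on H3K36, and the 2 H3K36 erasers (Kdm2a and Kdm2b). Kdm6b, Kdm7a and Phf8, which act on H3K27 or on H3K9, H3K27 and H4K20, were marked as well. Of 33 further genes of histone lysine methylation, 30 were marked. Prdm16, Mecom and Hr were not. Kmt5a, the gene that carries the symbol Setd8 in older annotations, was among those marked, with 2 start domains. The wider one, at its 5'-most start, measured 2525 bp. Its strongest start peak, with a signal of 18.9, lay in the other, nearest to a start 6774 bp downstream.

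Smyd1 lay in a region with peaks that belong elsewhere by position. Its gene model on chromosome 6 spanned 6 replicated peaks, and 3 of them, with signals of 5.65, 11.2 and 13.4, lay within 1000 bp of starts of Krcc1 and Mir8112. Krcc1 is annotated on the other strand, and its domain ran over 3841 bp at chr6:71269561-71273401. The peak closest to a Smyd1 start was 1542 bp away and had a signal of 4.65, so a window of 2500 bp would have called the gene marked. In the 1001 bases around its 5'-most start Smyd1 had 13 CpG dinucleotides and an observed to expected CpG ratio of 0.188.

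Prdm9, which marks the sites of meiotic recombination in germ cells, was marked although the germ cell genes Ddx4 and Sycp1 were not. A single peak of 1544 bp covered its 5'-most start, at chr17:15563686-15565229, reaching 875 bp upstream and 668 bp downstream. Its signal was 19.4 in the replicated list, 17.9 in replicate 1 and 20.0 in replicate 2, and ranked 1585 of 11037. The widths were 1586 bp in replicate 1 and 1507 bp in replicate 2, so both lists placed a peak of like size there. No start of another annotated gene lay within 1000 bp of this domain. The window of 1001 bases held 52 CpG dinucleotides. The promoters of Prdm9 and Smyd1 are shown because both genes are restricted to other tissues and differ in the mark. Both are on the minus strand of mm10, at chr17:15564305-15564604 and chr6:71262232-71262531, each 250 bases before and 50 after a start. The Prdm9 window is at the 5'-most start and the Smyd1 window at the third start from the 5' end. CpG dinucleotides are in capitals, 18 and 3 of them.
Prdm9: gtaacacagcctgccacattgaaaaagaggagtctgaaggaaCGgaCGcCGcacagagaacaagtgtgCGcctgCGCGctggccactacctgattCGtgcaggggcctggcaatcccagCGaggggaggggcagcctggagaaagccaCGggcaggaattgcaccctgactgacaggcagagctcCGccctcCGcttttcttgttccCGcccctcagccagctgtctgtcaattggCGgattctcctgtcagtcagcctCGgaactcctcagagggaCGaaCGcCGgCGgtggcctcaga
Smyd1: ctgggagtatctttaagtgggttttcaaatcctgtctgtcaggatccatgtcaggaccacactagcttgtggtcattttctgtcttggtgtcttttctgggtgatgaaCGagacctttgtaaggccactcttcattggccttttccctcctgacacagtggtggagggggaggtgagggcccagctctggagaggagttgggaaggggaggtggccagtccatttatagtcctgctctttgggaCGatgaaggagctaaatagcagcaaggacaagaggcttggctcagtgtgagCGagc
In such windows of 300 bases, marked genes had a median of 23 CpG dinucleotides (quartiles 16 to 31) and unmarked genes 4 (2 to 10). The Prdm9 window lay in the range of marked genes and the Smyd1 window in that of unmarked ones.

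The domains of the set were wider than those of most marked genes, and of 7 members among the widest 5.01% of marked genes 4 were KMT2 genes. The 42 marked members had a median width of 2750 bp, with 3293.5 bp in the list of replicate 1 and 2711.5 bp in that of replicate 2. Over all marked genes it was 2258 bp (quartiles 1668 to 3035), and over the 30 marked genes of the further methylation list it was 3184 bp, so the width was not particular to the set. Of the members 33 exceeded that median, as did 50% of all marked genes. The 553 widest domains began at 4864 bp, which 5.01% of marked genes reached, and 7 of the members were among them: Setd1b, Setd5, Kmt2e, Kdm6b, Kmt2d, Kdm2a and Kmt2c. Kmt2a, at 4854 bp, fell just short. In replicate 1, where the limit was 5450 bp, 8 members reached it, with Kmt2b and Kdm3a but without Kmt2c. In replicate 2, where it was 4741.5 bp, 6 members reached it, without Kdm2a.

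**Figure D1:**
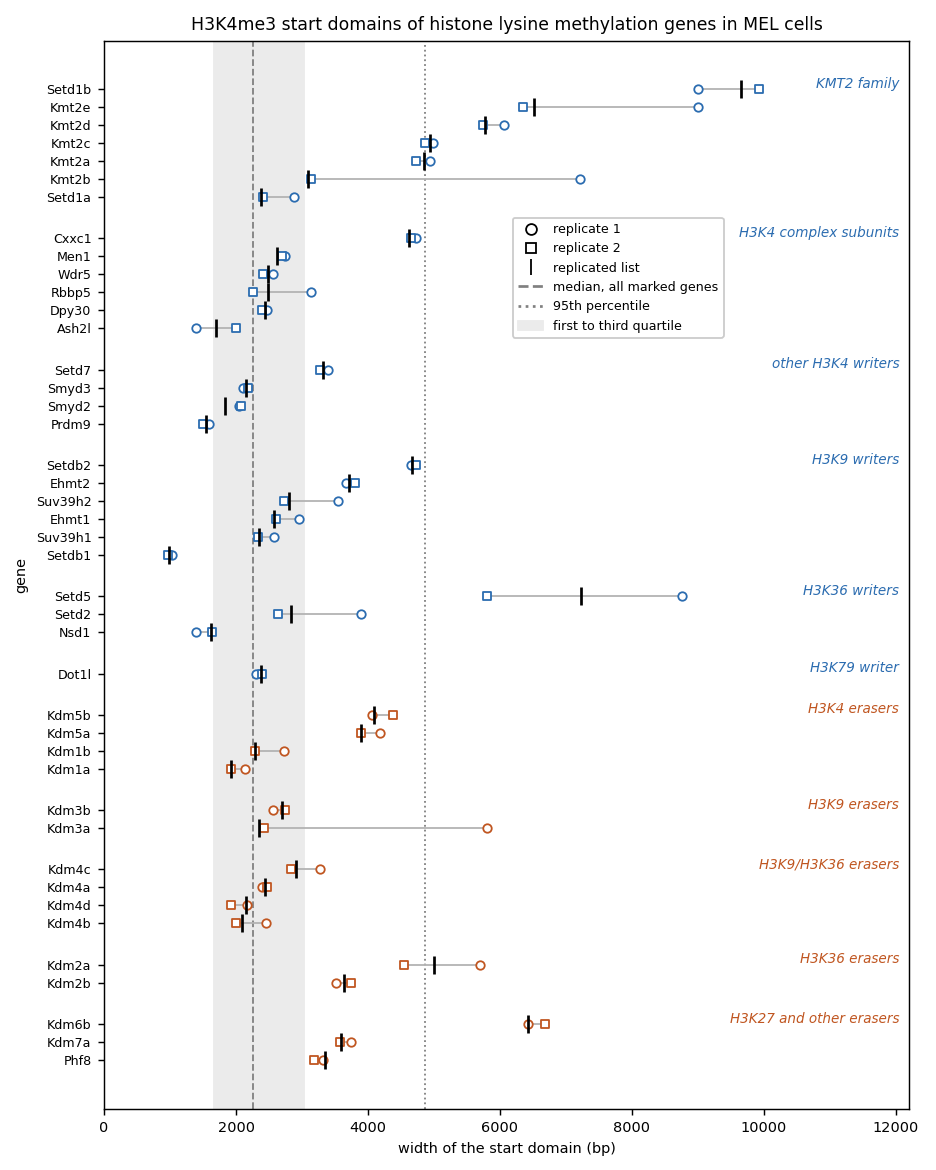
Width in bp of the widest H3K4me3 domain at a start of each marked member, by role and target residue. Circles and squares give replicates 1 and 2, black bars the replicated list, the grey band and dashed line the quartiles and median of all marked genes, and the dotted line their 95th percentile. Setd1b, Setd5, Kmt2e, Kdm6b, Kmt2d, Kdm2a and Kmt2c lie beyond the dotted line in the replicated list, and Kmt2b, Kdm3a and Setd5 have the longest spans relative to their width.

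The KMT2 family holds the catalytic subunits of the H3K4 methyltransferase complexes, and Kmt2e. Of its domains, 7 of 7 were wider than the median of marked genes and 4 of 7 were in the widest group. Their median was 4937 bp, 6058 bp in replicate 1 and 4863 bp in replicate 2, with a range of 2376 to 9650 bp. Setd1b, a catalytic subunit of the SET1 complexes that write much of the genome's H3K4me3, had the widest domain, 9650 bp, which ranked 11 of 11037. In replicate 1 it was 9005 bp and in replicate 2 9927 bp, with Kmt2e level with it in replicate 1. The domain, at chr5:123135220-123144869, was made of 5 peaks and lay mostly upstream of the gene, from 6973 bp before the 5'-most start to 2676 bp after it. Peak signal fell with distance, from 17.2 over the start nearest to the summit to 4.06 at the far end. The starts of the lincRNAs Gm38102, 4932422M17Rik and AI480526 lay in the same domain, at -6432, -3262 and -527 bp from the 5'-most start. Setd1a, its close paralogue, had the narrowest domain of the family, 2376 bp, with 2879 bp in replicate 1 and 2413 bp in replicate 2.

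Kmt2e, a family member without known methyltransferase activity of its own, had 6522 bp (9004 in replicate 1, 6344 in replicate 2). The domain of Kmt2d, which writes H3K4me1 at enhancers with Kmt2c, measured 5768 bp (6058 and 5741). That of Kmt2c measured 4937 bp (4979 and 4863), and that of Kmt2a, the gene rearranged in MLL leukaemias, 4854 bp (4947 and 4721). Kmt2b was at 3086 bp in the replicated list and 3130 bp in replicate 2 but at 7214 bp in replicate 1. Apart from Kmt2b and Kmt2e the widths of the family were close between the libraries.

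The genes of the complex subunits, which carry no catalytic domain, had a narrower median than the KMT2 family, though single genes overlapped. In the replicated list Setd1a, at 2376 bp, was narrower than every subunit gene but Ash2l, and Cxxc1 was wider than Kmt2b. The median of the subunit genes was 2486 bp, 2657 bp in replicate 1 and 2401.5 bp in replicate 2. The difference of the medians was 2451 bp in the replicated list, 3401 bp in replicate 1 and 2461.5 bp in replicate 2, larger than the difference between replicates in either group. Wdr5 (2488 bp), Rbbp5 (2484 bp), Dpy30 (2434 bp) and Men1 (2614 bp), the gene of menin, a partner of Kmt2a and Kmt2b, were close together. Cxxc1, a CpG-binding subunit of the SET1 complexes, was wider at 4623 bp, and Ash2l was narrower at 1701 bp. The marked members grouped here as H3K4 writers outside the complexes, Setd7, Smyd2, Smyd3 and Prdm9, had a median of 1997 bp. Setd7 was the widest of these at 3324 bp, above Kmt2b and Setd1a in the replicated list. Over all marked members grouped as H3K4 writers the median was 2614 bp.

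The H3K9 writers had a median of 2695 bp and spanned from the narrowest domain of the set to 4667 bp at Setdb2. Setdb1, an H3K9 methyltransferase that silences retroelements, had 987 bp, ranked 10193, with 1024 bp in replicate 1 and 973 bp in replicate 2, and a signal of 11.6 (11.1 and 11.6). Its domain, at chr3:95356597-95357583, consisted of 2 short peaks with signals of 6.33 and 11.6 on either side of the 5'-most start, with no peak between 111 bp upstream and 327 bp downstream of it. In 1001 bases around the Setdb1 starts, 38.2% and 40.6% of 32-base words occurred more than once in the genome, the highest shares among 71 member windows, of which 47 had none. What part such sequence had in the narrow domain was not tested. Among the H3K36 writers, Setd5, whose activity on H3K36 is disputed, had 7221 bp, ranked 98, with 8761 bp in replicate 1 and 5799 bp in replicate 2. Its first start lies 32 bp from that of Gt(ROSA)26Sor, the antisense transcript of the locus used for ubiquitous transgenes. Setd2, which sets H3K36me3 behind RNA polymerase, had 2840 bp (3888 and 2641), and Nsd1, a dimethyltransferase of H3K36, had 1621 bp (1391 and 1633). Dot1l had 2376 bp (2299 and 2397).

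Among the erasers, Kdm6b, an H3K27 demethylase induced in inflammation and differentiation, had the widest domain, 6429 bp, ranked 159, with 6422 bp in replicate 1 and 6687 bp in replicate 2. Kdm2a, an H3K36 demethylase that binds CpG islands, followed with 4997 bp (5701 and 4548), and Kdm5b, an H3K4me3 demethylase, with 4095 bp (4060 and 4376). The narrowest were Kdm1a, the H3K4 demethylase of the CoREST complex, at 1927 bp (2136 and 1923), Kdm4b at 2086 bp (2451 and 2003) and Kdm4d at 2144 bp (2173 and 1926). Kdm5a (3893 bp) and Kdm5b were close in width, while their relatives Kdm5c and Kdm5d, outside the set, had 3188 and 1788 bp. Kdm1a and Kdm1b (2286 bp) were nearer to the median of all marked genes.

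Writers and erasers differed in width by less than the replicates did. The median was 2614 bp for writers and 2905 bp for erasers, a difference of -291 bp, with -187 bp in replicate 1 and -196 bp in replicate 2. The writers' own median moved by more than that between replicates, from 3131 bp to 2641 bp, and that of the erasers from 3318 bp to 2837 bp. Between the KMT2 family and the 4 H3K4 erasers the difference was 1847.5 bp, 2668 bp in replicate 1 and 1772.5 bp in replicate 2. The eraser median was 3089.5 bp, with 3390 bp and 3090.5 bp in the replicates.

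Peak signal gave another order of genes than width. Signals are compared within a list, and between lists only as percentiles among its marked genes. Of the 42 members 26 were above the median signal of marked genes, against 50% of them all. The median signal percentile was 59.5 for writers, 72.7 in replicate 1 and 71.3 in replicate 2, and 50.1 for erasers, 49.5 in replicate 1 and 65.5 in replicate 2. The difference between the roles was 9.46 percentile points in the replicated list, 23.2 in replicate 1 and 5.76 in replicate 2, so its size was not stable between the libraries. Kdm1a, with the narrowest domain of the erasers, had the highest signal of the set, 26.2, ranked 178, with 21.3 in replicate 1 and 34.2 in replicate 2. Kdm2b, an H3K36 demethylase that brings Polycomb complexes to CpG islands, had 24.7 (20.2 and 28.4). Kmt2b had the highest signal of the writers, 24.6, but 8.94 in replicate 1 and 29.8 in replicate 2. Kdm7a, a demethylase of H3K9me2 and H3K27me2, had 21.3 with 8.10 and 28.6. These stood at percentiles 21.8 and 98.0 for Kmt2b and 16.0 and 97.3 for Kdm7a, low in replicate 1 and near the top in replicate 2. Next among the writers stood Suv39h2, an H3K9me3 methyltransferase of constitutive heterochromatin, at 21.04 (16.6 and 23.2) and Ehmt1, which sets H3K9me2 together with Ehmt2, at 20.7 (12.4 and 28.4).

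The lowest signal belonged to Rbbp5, 6.88, ranked 10308, with 7.37 in replicate 1 and 13.6 in replicate 2. Men1 had 7.66 (6.48 and 9.28) and Kmt2d 9.42 (15.3 and 13.4). Among the erasers Kdm5a, an H3K4me3 demethylase, had 8.13 (11.2 and 8.63), Kdm4c 9.05 (9.59 and 10.5) and Kdm3b 10.6 (11.3 and 17.2). Among the genes with wide domains, the writers Setd1b, Setd5 and Kmt2e had signals of 17.2 (16.2 and 18.8), 17.2 (16.7 and 19.5) and 14.5 (14.4 and 21.1) in the replicated list and, in brackets, replicates 1 and 2. The erasers Kdm6b, Kdm2a and Kdm5b had 15.8 (6.71 and 17.8), 17.3 (10.5 and 26.5) and 11.6 (9.93 and 18.8). At Kdm6b the strongest start peak of replicate 1 had its summit 2145 bp downstream of the GENCODE start, against -2026 bp in replicate 2. Its replicate signals were therefore not read at the same place. Of the narrow erasers, Kdm4b and Kdm4d, which demethylate H3K9, had 13.5 (13.9 and 15.9) and 13.7 (15.0 and 12.8). In the replicated list Kmt2d joined a domain in the widest group with a signal at percentile 16.7, but that percentile was 76.5 in replicate 1 and 35.6 in replicate 2. Kdm1a joined a domain narrower than the median of marked genes with a signal at percentile 98.4, with 97.2 and 99.5 in the replicates. Across members the Spearman correlation of width and signal was 0.017 (n = 42), against 0.294 over all marked genes, a description over genes of the same libraries. For Kdm2b it pairs the width at the first start with the signal at an internal start.

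Widths were much closer between the replicates than signals. The median ratio of the wider to the narrower replicate was 1.07 for members and 1.10 for all genes marked in both. A ratio of at least 1.5 was seen at 3 members, Kdm3a with 2.39 (5804 and 2431 bp), Kmt2b with 2.30 and Setd5 with 1.51, and at 8.94% of all genes. The Spearman correlation between replicates was 0.903 for member widths and 0.908 for all genes, but 0.242 for member signals and 0.496 for all. Signal percentiles lay over 50 points apart at 6 members, Kdm7a, Kmt2b, Suv39h1, Kdm2a, Kdm6b and Dpy30, and at 9.19% of all genes. At Kdm6b the summits compared lay on opposite sides of the start in the replicate lists. Suv39h1, the paralogue of Suv39h2, was at percentile 95.8 in replicate 1 and 20.3 in replicate 2, the reverse direction to Kmt2b and Kdm7a.

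**Figure D2:**
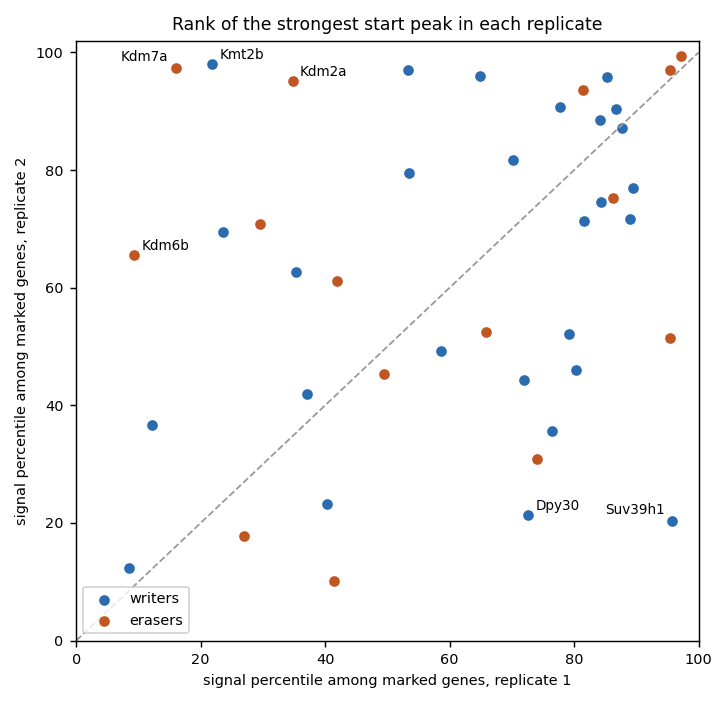
Percentile of each member's strongest start peak among all marked genes, in replicate 1 (horizontal) and replicate 2 (vertical), for writers and erasers. The dashed line marks equal percentiles, and the 6 named genes lie over 50 points apart. At Kdm6b the summits compared lie on opposite sides of the start.

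The 5'-most annotated start was marked in 39 of 43 members, against 46.9% of all genes. Besides Smyd1 it was unmarked in Dpy30, Nsd1 and Kdm4c, 3 of the 42 marked members, against 6.8% of marked genes. Both replicate lists gave 39 as well. Dpy30, a core subunit of the KMT2 complexes, had its peaks at a group of starts 7741 bp downstream of the first, with a domain of 2434 bp at chr17:74314853-74317286 and a signal of 14.7 (14.7 in replicate 1 and 11.3 in replicate 2). Of the 32-base words around its unmarked start 12.5% were repeated in the genome, and 0 around the marked one. Kdm4c used a start 9439 bp downstream of the first, inside a domain of 2905 bp (3269 and 2837). Nsd1 used the last of a group of starts, 2604 bp downstream, with a signal of 14.7 (9.19 and 18.5). Of the 311 annotated starts of the set 151 lay within 1000 bp of a replicated peak, against 44.1% of all annotated starts.

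The unmarked and the marked start of Kdm4c are shown side by side because the gene is the same and the sequence differs. Both are on the plus strand of mm10, with CpG dinucleotides in capitals. The windows are chr4:74242247-74242546 with 0 and chr4:74251686-74251985 with 34 CpG dinucleotides.
Kdm4c, unmarked 5'-most start: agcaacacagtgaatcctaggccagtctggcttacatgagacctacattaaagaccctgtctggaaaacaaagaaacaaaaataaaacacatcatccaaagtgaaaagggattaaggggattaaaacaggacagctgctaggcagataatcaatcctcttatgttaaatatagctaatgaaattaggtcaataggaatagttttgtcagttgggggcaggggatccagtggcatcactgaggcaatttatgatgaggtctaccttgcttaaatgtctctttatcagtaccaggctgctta
Kdm4c, marked start: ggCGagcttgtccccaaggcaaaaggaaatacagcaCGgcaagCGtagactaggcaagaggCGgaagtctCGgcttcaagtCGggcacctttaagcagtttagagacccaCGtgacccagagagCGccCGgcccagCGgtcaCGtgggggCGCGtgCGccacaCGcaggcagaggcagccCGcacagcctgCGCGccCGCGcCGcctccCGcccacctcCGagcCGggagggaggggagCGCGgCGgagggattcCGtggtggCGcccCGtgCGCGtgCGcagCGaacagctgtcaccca
The marked start held more CpG dinucleotides than the median of 23 at marked genes, and the unmarked start held none.

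Kdm6b had its domain away from the annotated start. Relative to the 5'-most GENCODE start it ran from 7027 to 599 bp upstream, at chr11:69414274-69420702, with signals rising from 3.06 to 15.8 towards the gene, and a second group of peaks began 1159 bp downstream. The summit of its strongest start peak lay at -2023 bp from that start and at -2026 bp in replicate 2, but at 2145 bp downstream in replicate 1. RefSeq, consulted after the distances were seen, has a curated start at -2519 bp, inside the domain, and the summit of the replicated list was 496 bp downstream of it. Of 10 RefSeq starts of Kdm6b, 5 lay in the domain. The 1001 bases around the GENCODE start held 12 CpG dinucleotides. With a window of 500 bp Kdm6b would have been called unmarked.

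**Figure D3:**
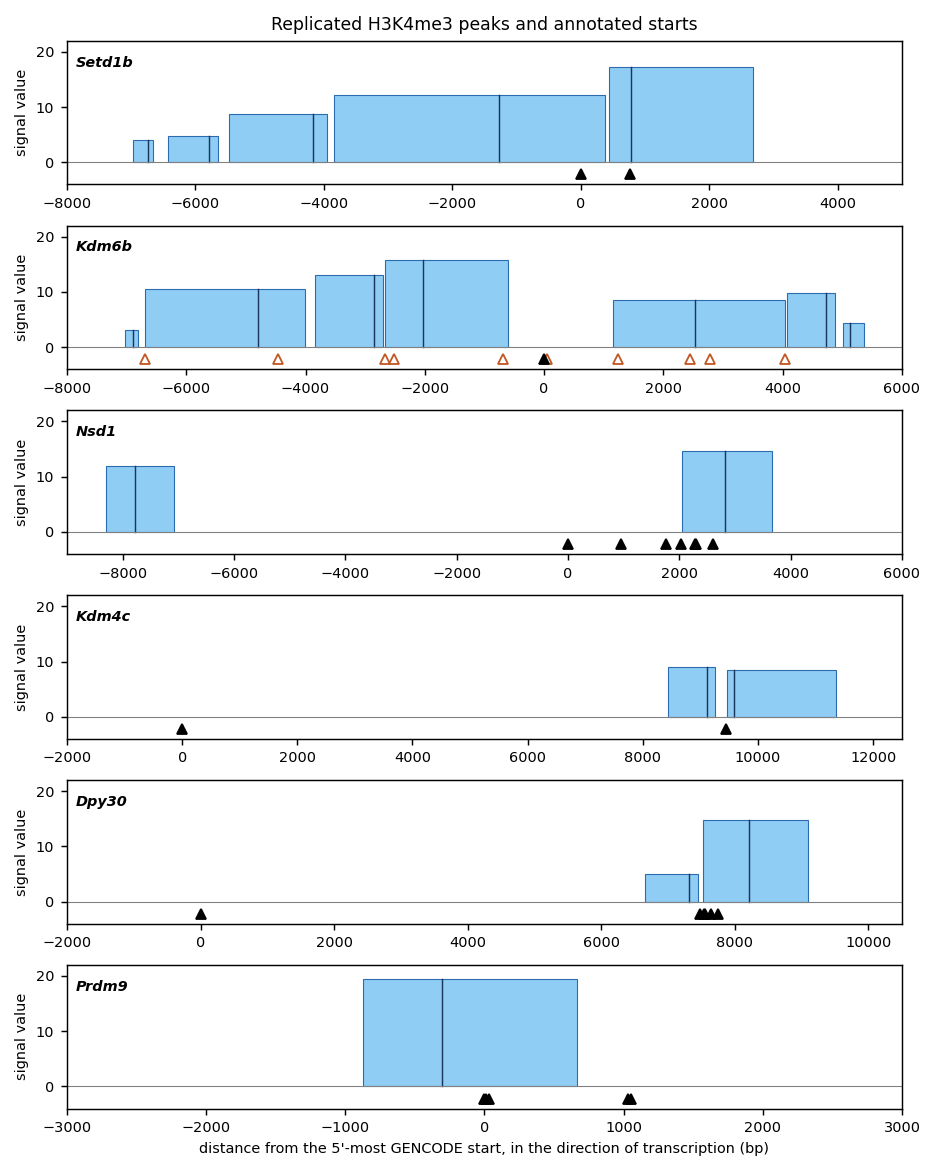
Replicated peaks at 6 members as boxes from peak start to peak end, with the signal value as height and a line at the summit, against the distance in bp from the 5'-most GENCODE start. Black triangles are GENCODE starts and open triangles, for Kdm6b only, RefSeq starts. Setd1b has its 5 peaks mostly upstream, Nsd1, Kdm4c and Dpy30 have peaks at downstream starts, and Kdm6b has none over its GENCODE start.

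Distinct domains at separate starts were found at 3 members, Kdm2a, Kdm2b and Men1, against 7.46% of marked genes. Kdm2b had 3643 bp at its first start, with a signal of 15.5, and 3492 bp at a start 89468 bp downstream, with a signal of 24.7. That internal start, which gives a shorter form, held the strongest start peak of the gene. Kdm2a had a second domain of 2360 bp from 63765 to 66124 bp downstream, with a signal of 13.0 against 17.3 at its first start. Men1 had a second domain of 1130 bp, made of 2 peaks with signals of 3.15 and 8.87, of which the weaker lay within 1000 bp of an annotated start. Most of this domain, at chr19:6340805-6341934, lay past the annotated end of Men1 at 6340891. Starts of other genes were not searched for there, so it may not belong to Men1. With Dpy30, Nsd1 and Kdm4c, Kdm2b makes 4 members whose strongest peak was nearest to a start over 1000 bp from the first, against 12.1% of marked genes.

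The summit of the strongest start peak lay downstream of the nearest start in 31 of 42 members, near the 68.7% of all marked genes. It was upstream in 8 writers and 3 erasers. The median offset was 148 bp (quartiles -71 to 443.5), against 104 bp (-160 to 289) for all marked genes. In 15 members the replicate lists placed the summit on opposite sides of the nearest start, as in 26.9% of all genes marked in both, so the side of a single gene is not firm. The distance exceeded 1000 bp at Kmt2c, Kmt2d, Kmt2e, Kdm5b and Kdm6b, 5 members, against 3.77% of marked genes. From the nearest RefSeq start, curated or predicted, it exceeded 1000 bp at 2 members, Kmt2c with 1145 bp and Kdm3b with 1066 bp. From the nearest curated start it also did so at Nsd1 (2819 bp), Kdm5b (1784 bp), Kmt2d (-1193 bp) and Kdm2a (-1050 bp).

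**Figure D4:**
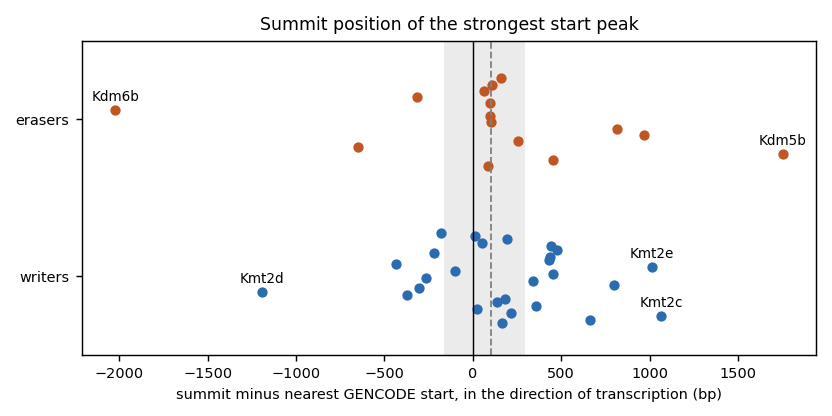
Distance in bp from the nearest GENCODE start to the summit of each member's strongest start peak, positive downstream. Points are genes, spread vertically for legibility, and the grey band and dashed line give the quartiles and median of all marked genes. The 5 named genes lie over 1000 bp from a start.

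Few members shared a domain with another coding gene. This was so for 5 of 42, against 25.7% of marked genes, and in each case the partner was on the other strand. Setdb2 shared its 4667 bp (4646 in replicate 1 and 4733 in replicate 2) with Cab39l, and Ehmt2, an H3K9 dimethyltransferase, its 3716 bp (3668 and 3800) with C2. Among the erasers Kdm1b shared 2286 bp (2720 and 2286) with Tpmt, Kdm5a 3893 bp (4183 and 3895) with Ccdc77, and Kdm4d 2144 bp with Cwc15. At these 5 the mark cannot be assigned to one gene of the pair. Their signals were 16.4 at Setdb2, 15.0 at Ehmt2, 20.1 at Kdm1b, 8.13 at Kdm5a and 13.7 at Kdm4d. Starts of other gene types, counted after the widths were seen, lay within 1000 bp of the domain in 13 members, against 17% of marked genes. Of the KMT2 family 6 of 7 had one, all but Setd1a, and of the other marked members 7 of 35. A wider domain covers more starts, and the part of these transcripts in the width was not tested.

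Most of the set started in CpG-rich sequence. In 1001 bases around the start nearest to the summit, or the 5'-most start where unmarked, 38 of 43 members were high in CpG, with an observed to expected ratio of at least 0.6 and at least 50% GC, against 46.5% of all genes. Ash2l, Men1 and Kdm4a were intermediate, and Smyd1 and Kdm6b were low, with a ratio under 0.4. The Kdm6b window was centred on its GENCODE start, 599 bp from its domain, so it held no part of that domain. Of all high-CpG genes 80.7% were marked, and their median width was 2405.5 bp. Marked members had a median of 86.5 CpG dinucleotides against 65 over all marked genes, and the KMT2 family had 86. Across the 42 members CpG count and width had a Spearman correlation of 0.055, against 0.361 over the 11037 marked genes. For Kdm2b the count was taken at its internal start, 89468 bp downstream, and the width at its first start. Kdm7a, with 151 CpG dinucleotides, had a domain of 3596 bp, and Setd1b, with 79, had 9650 bp.

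**Figure D5:**
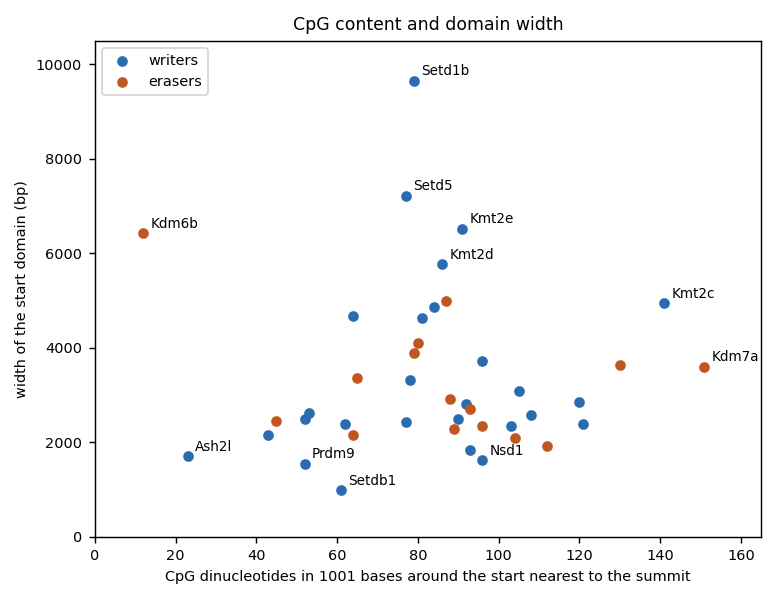
CpG dinucleotides in 1001 bases around the start nearest to the summit (horizontal) and width of the start domain in bp (vertical) for the 42 marked members, writers and erasers. The widest domains, at Setd1b, Setd5 and Kmt2e, stand at middle CpG counts of 77 to 91. Kdm6b stands alone at 12, counted around a GENCODE start that lies outside its domain. Kdm2b is plotted with the count at its internal start and the width at its first start.

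RefSeq promoter windows on GRCm38.p6, 250 bases before to 50 after a start, were matched by symbol for 31 of 43 members. Those without were Ash2l, Cxxc1, Kdm2a, Kdm3b, Kdm4b, Kdm5a, Kdm6b, Kmt2b, Kmt2e, Nsd1, Setd1b and Smyd3. Letters were searched on both strands, and a match is a description of the window, not a bound site. The GC box GGGCGG was in 23 of 31 windows, against 35.7% of all RefSeq windows and 64.0% of those of marked genes. The ETS letters CCGGAAG were in 5, against 19.0% of windows of marked genes, the CCAAT box CCAAT in 10 against 38.3%, the E box CACGTG in 2 against 10.1%, and the GATA letters AGATAA in 2, Setd5 and Setdb1, against 6.48%. The NRF1 motif, its palindromic core, was in 0 of 31 against 2.22%. The TATA box TATAAA was in the window of Smyd1 alone, against 6.42% of windows of marked genes.

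The YY1 letters, those in capitals in the sequences that follow, were in 4 of 31 windows, those of Dot1l, Phf8, Suv39h1 and Suv39h2, against 0.852% of all windows and 2.21% of those of marked genes. YY1 is a zinc finger factor that often binds just downstream of a start. The sites are shown with their flanks because both Suv39h paralogues hold them and Phf8, a demethylase of H3K9me2 and H4K20me1, holds 2. Capitals mark the 10 letters, on the strand of the gene.
Dot1l, chr10:80755204-80755252, plus strand: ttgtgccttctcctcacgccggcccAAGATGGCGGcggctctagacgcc
Phf8, chrX:151520489-151520548, plus strand: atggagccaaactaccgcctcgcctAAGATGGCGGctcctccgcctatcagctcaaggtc
Phf8, chrX:151520662-151520721, plus strand: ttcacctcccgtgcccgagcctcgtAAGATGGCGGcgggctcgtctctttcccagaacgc
Suv39h1, chrX:8074531-8074590, minus strand: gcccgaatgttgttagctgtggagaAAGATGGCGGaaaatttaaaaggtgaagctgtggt
Suv39h2, chr2:3474937-3474974, minus strand: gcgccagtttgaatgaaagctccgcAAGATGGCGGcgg
The letters began 26, 15 and 37 bp downstream of the RefSeq start at Dot1l, at the second Phf8 site and at Suv39h2. At the first Phf8 site and at Suv39h1 they began at -158 and -204 bp from it. The Suv39h1 site was nevertheless downstream of the 5'-most GENCODE start of that gene, at chrX:8074760. The domains of these 4 genes measured 2376 bp at Dot1l, 3352 bp at Phf8, 2347 bp at Suv39h1 and 2809 bp at Suv39h2.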

How the data were processed

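H3K4me3 ChIP-seq peak lists of 2 MEL libraries were analysed. The deposited notes say that a replicate's peaks were made from its own alignments with a control, the pooled peaks from both libraries, and the replicated peaks from the other lists, all on mm10. The aligner, the caller and the rule by which peaks counted as replicated were not given in the sources used here. As deposited, the signal value is a score given to each peak by the authors, of undefined scale, and was compared only within a list. The authors also deposited a −log10 q-value for each peak, used in 1 alternative. A list on mm9 was not used here, and some promoter windows are not reported here.

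The members and lists were chosen with earlier results of these data known. Starts came from GENCODE M21 (93513 starts of protein-coding genes) and sequence from the GRCm38.p6 genome of RefSeq. Peaks on chromosomes were used, 37379 of the replicated list. No test was run, since genes of 1 line are not replicates, and members were set beside all genes in each list. Every member is named, and values are given in full for members without a start peak, with an unmarked 5'-most start, sharing a domain, or among the 3 highest and lowest in width or signal of each role. The assignment of peaks to starts was tested on simulated data first. The depth of the libraries is unknown. Scripts used Python 3.11.15 with numpy 2.4.6, scipy 1.17.1, pandas 2.3.3, pysam 0.24.0, numba 0.67.0 and matplotlib 3.10.9.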

Additional observations from a re-analysis of the deposited data

How the results depend on the processing

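The alternatives were each replicate left out in turn, the pooled list, a −log10 q of at least 5, windows of 500 and 2500 bp, the 5'-most start alone, at least 50% of the peak inside the window, no merging of peaks and gaps of up to 2000 bp. Of 85 values, 75 moved by no more than the spread between replicates or, for counts, stayed within 1.5 times, and 10 moved further. The 10 were all median widths or median signal percentiles. The limit for counts was loose, since the count of marked members could not rise by that much. The count of marked members ranged from 38 to 43. A window of 500 bp lost Kdm6b, a window of 2500 bp added Smyd1, the 5'-most start alone lost Dpy30, Nsd1 and Kdm4c, and the rule of 50% of the peak lost Kmt2d, Kdm5b, Kdm3b and Kdm6b.

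Without merging, the median width was 1621 bp for writers and 1894 bp for erasers, and Setd1b ranked 107. Leaving out 1 replicate gave 2641 to 3131 bp for writers and 2837 to 3318 bp for erasers, signal percentiles of 71.3 to 72.7 for writers and 49.5 to 65.5 for erasers, and Setd1b ranks of 11 and 55. The signal percentile of writers was 69.4 with the 5'-most start alone and 61.3 with 50% of the peak, where that of erasers was 64.4. Writers had the narrower median in all 10 settings, the difference from erasers being -65 to -307.5 bp, and the cause of the changes was not tested. No paired analysis was possible because the 2 libraries form 1 group. Depth is unknown, so a missing peak is not shown to be a missing mark.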
